A study of Mus musculus with 6 samples.

Results

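Markers of liver macrophages were followed in whole liver, as a list of 36 genes picked by name out of 35082 genes summed from the deposited transcript counts. All 36 were detected and all 36 passed the filter on low counts, which left 12497 genes for testing. They were divided by role into 8 markers of resident Kupffer cells, 15 genes carried by macrophages in general, 9 markers of lipid-associated macrophages, and 4 markers of monocytes and recruited cells. Poly(A) RNA was sequenced from whole liver of male mice of the C57 background, which were put on a high-fat diet when 8 weeks old and stayed on it for 20 weeks. The knockout-labelled group held 3 animals of genotype Alb-cre; G3BP1f/f, in which Cre under the albumin promoter acts in hepatocytes, and the control group held 3 animals of genotype G3BP1f/f without Cre. Both groups carry the floxed alleles and both ate the high-fat diet, so no library shows liver on another diet. Macrophages do not use the albumin promoter and are not the cells that this Cre targets.

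Kupffer cells are the macrophages that live in the liver sinusoids, where they clear bacteria, old red cells and lipoproteins. In fatty liver, monocytes enter from blood and can take up a lipid-associated state marked by Trem2, Gpnmb and Spp1, while part of the resident pool, marked by Clec4f and Timd4, is known to be lost. In bulk tissue, fewer macrophages and less RNA of a gene per macrophage cannot be told apart.

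The macrophage fate depends on PU.1, the protein of the gene Spi1, which binds purine-rich DNA. The stretch of 250 bases before the annotated start was searched on both strands for GAGGAAG, a form of the PU.1 motif whose reverse complement is CTTCCTC. RefSeq sequences of build GRCm38.p6 held 32 such stretches for 29 of the 36 genes. The motif lay in 12 of these 32, or 37.5%, belonging to 11 genes, and in 10.6% of all 32851 stretches. A second motif, the MAF motif TGCTGA, whose reverse complement is TCAGCA, lay in 21.9% of the marker stretches and in 16.1% of all. Neither motif contains the other, and a match describes letters only. Stretches of 4 genes with the PU.1 motif in capitals are shown as examples from 3 of the 4 roles: Cd5l and Marco for the resident cells, Trem2 for the lipid-associated state and Itgam for recruited cells. The match begins at base -67 in Cd5l and -41 in Trem2 on the reverse strand, and at -146 in Marco and -84 in Itgam on the forward strand, where -1 is the last base before the start. They are written 5′ to 3′ along each gene and lie on GRCm38.p6 at chr3:87357631-87357880 (plus strand) for Cd5l, chr1:120505025-120505274 (minus strand) for Marco, chr17:48346151-48346400 (plus strand) for Trem2 and chr7:128062390-128062639 (plus strand) for Itgam.
Cd5l: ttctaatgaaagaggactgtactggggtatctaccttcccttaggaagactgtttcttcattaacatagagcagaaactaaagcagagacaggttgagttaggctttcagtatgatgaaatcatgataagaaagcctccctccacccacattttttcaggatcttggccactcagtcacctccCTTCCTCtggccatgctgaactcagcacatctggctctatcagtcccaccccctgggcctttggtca
Marco: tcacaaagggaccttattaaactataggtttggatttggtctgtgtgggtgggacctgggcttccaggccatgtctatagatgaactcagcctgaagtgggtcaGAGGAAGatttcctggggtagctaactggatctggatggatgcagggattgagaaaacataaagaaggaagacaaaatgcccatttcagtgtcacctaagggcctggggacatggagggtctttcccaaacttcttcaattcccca
Trem2: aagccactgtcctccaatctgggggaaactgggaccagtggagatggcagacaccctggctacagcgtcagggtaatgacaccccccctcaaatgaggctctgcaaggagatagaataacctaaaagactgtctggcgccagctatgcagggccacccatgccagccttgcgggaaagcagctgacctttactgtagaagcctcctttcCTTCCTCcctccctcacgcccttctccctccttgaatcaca
Itgam: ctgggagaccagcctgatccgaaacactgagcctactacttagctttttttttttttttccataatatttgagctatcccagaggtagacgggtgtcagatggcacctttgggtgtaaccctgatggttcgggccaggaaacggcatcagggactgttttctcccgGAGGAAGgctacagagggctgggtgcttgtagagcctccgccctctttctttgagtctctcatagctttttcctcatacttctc

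Each library held between 20899135 and 21750007 estimated counts. Mitochondrial genes took 7.57%, 9.19% and 10.2% of counts in knockout-labelled replicates 1 to 3, against 7.40%, 7.64% and 7.22% in control replicates 1 to 3. The share of transcripts above 0 was 30.6%, 36.3% and 37.8% in the knockout-labelled libraries, against 30.4%, 30.2% and 31.2% in controls, and the part of either in the results was not tested. G3bp1, the targeted gene, measured 44.0, 30.0 and 31.5 CPM (counts scaled by library size with TMM factors) in knockout-labelled replicates 1 to 3, against 44.1, 34.8 and 40.5 CPM in control replicates 1 to 3. The groups overlapped, with a log2 difference of -0.18 (standard error 0.22, edgeR adjusted p = 0.91), and with library totals it was 0.07. The level of G3bp1 thus does not separate the groups, and the Cre group is called knockout-labelled throughout. The sources do not say which exon Cre removes, and a sum over the whole gene does not test for its loss. In knockout-labelled replicate 1 a transcript of 100 bases had an effective length of 3.50, against 100 in the other 5 libraries. The sources do not say why, and the cause was not tested.

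No macrophage marker passed the test between the groups. Of the 36 genes 34 lay lower in the knockout-labelled libraries, with a median log2 difference of -0.57, whereas 48.4% of all tested genes lay lower and their median was 0.014. When scaled by library totals alone, 29 of the 36 lay lower, with a median of -0.35 against 0.27 over all tested genes. None passed by edgeR, where 0% of all tested genes did, and none passed by DESeq2, where 0.0931% did. The smallest adjusted p among them was 0.84, and 1 gene, Spp1, had an unadjusted p under 0.05, a mark reached by 4.55% of all tested genes, 1.9% with the gene lower in the knockout-labelled libraries. In no marker did the groups separate, while 9.34% of all tested genes did, 4.55% lower and 4.79% higher. The direction of the list turned on control replicate 3. Without that library 19 of the 36 lay lower and 17 higher, with a median of -0.023. Leaving out any other library left 32 to 36 of them lower. Control replicate 3 was the highest of the 6 libraries for 34 markers, against 16.5% of all tested genes, the exceptions being Slc40a1 and Fabp5. Control replicate 1 was the lowest library for 13 markers, against 21.8% of all tested genes.

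**Figure D1:**
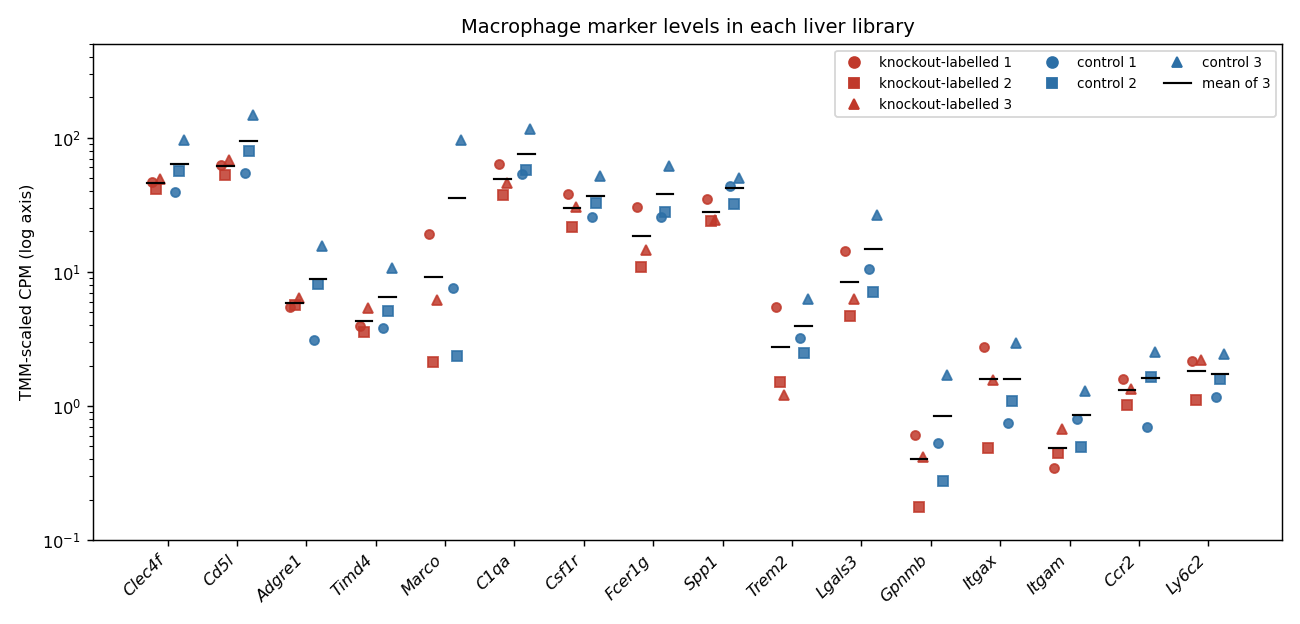
Level of 16 macrophage markers in each liver library, in CPM scaled with TMM factors on a log axis, with the 3 knockout-labelled libraries left of the 3 controls and a bar at each group's mean. Control replicate 3, the blue triangle, is the highest point for each of the 16 genes, and no gene separates the groups.

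The markers of resident cells lay lower together, by a median of -0.54 on the log2 scale, and all 8 were below 0, although Slc40a1 lay above 0 with upper-quartile factors and Slc40a1 and Cd163 did so with library totals. Their summed level was 236, 199.6 and 248 CPM in knockout-labelled replicates 1 to 3, against 167, 283 and 502 CPM in control replicates 1 to 3. The knockout-labelled libraries were close to each other and lay inside the span of the controls, at 228 ± 25.1 CPM against 317 ± 170.1 CPM in controls (SD, n = 3 each). Without control replicate 3 the resident median was 0.074, with 5 of 8 above 0. For 5 of the 8, control replicate 1 was below every knockout-labelled library and control replicate 3 was above every one.

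Clec4f, a lectin restricted to Kupffer cells (chromosome 6, 83644542 to 83656187, GRCm38), measured 47.2, 41.2 and 49.3 CPM in knockout-labelled libraries, against 39.7, 56.6 and 95.9 CPM in controls. Its log2 difference came to -0.48 (standard error 0.31, edgeR adjusted p = 0.85), and -0.062 without control replicate 3. Cd5l, a secreted protein of macrophages that blocks lipid synthesis and cell death (chromosome 3, 87357881 to 87371073), measured 62.4, 53.0 and 68.8 CPM in knockout-labelled libraries, against 54.7, 80.0 and 149 CPM in controls. The difference of Cd5l was -0.62 (standard error 0.35, edgeR adjusted p = 0.84), and control replicate 3 was the highest library. Adgre1, which encodes the F4/80 antigen, measured 5.44, 5.62 and 6.41 CPM in knockout-labelled libraries, against 3.09, 8.10 and 15.6 CPM in controls. The controls spanned the knockout-labelled values on both sides, and the Adgre1 difference of -0.62 (standard error 0.49, edgeR adjusted p = 0.86) turned to 0.067 without control replicate 3. Timd4, a receptor for phosphatidylserine on long-lived Kupffer cells (chromosome 11, 46810800 to 46844332), measured 3.93, 3.54 and 5.41 CPM in knockout-labelled libraries, against 3.83, 5.15 and 10.6 CPM in controls. For Timd4 the difference was -0.61 (standard error 0.40, edgeR adjusted p = 0.85).

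Marco, a scavenger receptor for bacteria and particles (chromosome 1, 120474538 to 120505024), varied far more than the other resident markers. It measured 19.1, 2.12 and 6.12 CPM in knockout-labelled libraries, against 7.56, 2.36 and 96.6 CPM in controls. The highest library stood 45.5-fold above the lowest, whereas the other 7 resident markers ranged by 2.30-fold to 5.04-fold. The log2 difference of -1.96 (standard error 1.24, edgeR adjusted p = 0.84) turned to 0.88 without control replicate 3 and was -3.11 without knockout-labelled replicate 1. Slc40a1, the iron exporter ferroportin with which Kupffer cells return iron from red cells, behaved unlike the rest of the resident list. It averaged 76.8 ± 10.1 CPM in knockout-labelled libraries and 77.8 ± 29.9 CPM in controls (SD, n = 3 each), and control replicate 2, not 3, was the highest. Slc40a1 is also made outside macrophages. Vsig4, a complement receptor, and Cd163, the haemoglobin scavenger receptor, had log2 differences of -0.33 and -0.16, and without control replicate 3 both lay above 0, at 0.19 and 0.29.

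Set against Clec4f within each library, the resident markers kept to different degrees of proportion. The ratio of Cd5l to Clec4f in CPM was 1.32, 1.28 and 1.40 in knockout-labelled libraries, against 1.38, 1.41 and 1.55 in controls, a span of 1.21-fold over all 6. That of Timd4 to Clec4f spanned 1.33-fold, and that of Vsig4 to Clec4f 2.41-fold. The ratio of Marco to Clec4f spanned 24.2-fold, with 0.405, 0.0515 and 0.124 in knockout-labelled libraries, against 0.190, 0.0416 and 1.01 in controls. These ratios carry no test and are not corrected for transcript length, whose trend differed between libraries. Cd5l and Timd4 followed Clec4f across libraries, control replicate 3 included, while Marco did not.

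**Figure D2:**
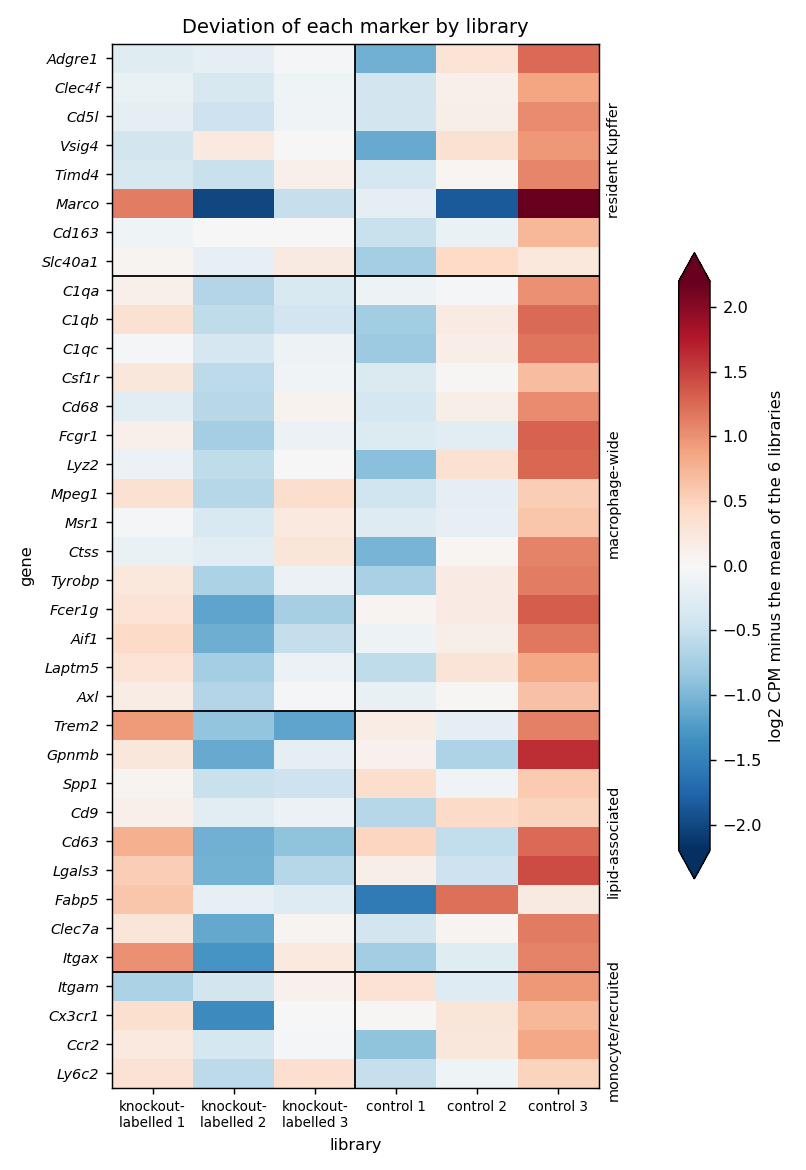
Deviation of log2 CPM from the mean of the 6 libraries for the 36 markers, by role, with knockout-labelled libraries in the left columns and controls in the right columns; red is above and blue below the mean, and the colours end at 2.2. Control replicate 3 is red in every row, knockout-labelled replicate 2 is blue in most rows, and Marco and Fabp5 depart from their neighbours.

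The genes that macrophages share lay lower by a median log2 difference of -0.56, with 14 of 15 below 0, though Msr1 lay above 0 with library totals. Without control replicate 3 the median of this role was 0.052, with 8 of 15 above 0. The sum of the 15 was 454, 272 and 389 CPM in knockout-labelled libraries, against 292, 433 and 833 CPM in controls. Control replicate 3 was the highest library for all 15 genes and knockout-labelled replicate 2 the lowest of its group for all 15. The 3 chains of complement C1q, which opens the classical complement pathway and is made by macrophages, are encoded side by side on chromosome 4. C1qa (136895917 to 136898803) measured 63.2, 37.4 and 46.2 CPM in knockout-labelled libraries, against 53.7, 57.6 and 117 CPM in controls. Its difference was -0.64 (standard error 0.34, edgeR adjusted p = 0.84), and -0.18 without control replicate 3. C1qb and C1qc had differences of -0.61 and -0.56, which were 0.065 and 0.099 without that library. C1qa, C1qb and C1qc were among the most abundant of the 36 genes per transcript length, with median levels of 51.4, 44.6 and 33.9 TPM over the 6 libraries.

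Csf1r, the receptor for the growth factors CSF1 and IL-34 on which macrophages depend, measured 38.3, 21.6 and 30.6 CPM in knockout-labelled libraries, against 25.7, 32.9 and 51.5 CPM in controls. The Csf1r groups overlapped, and the difference of -0.28 (standard error 0.31, edgeR adjusted p = 0.90) turned to 0.052 without control replicate 3. Lyz2, the lysozyme of myeloid cells, had a difference of -0.70, Cd68, a lysosomal glycoprotein, -0.63, and Fcgr1, the high-affinity IgG receptor, -0.69, all with an edgeR adjusted p of 0.84 or 0.85. Without control replicate 3 the differences were -0.042 for Lyz2, -0.12 for Cd68 and 0.066 for Fcgr1. Lyz1 is a near-identical copy of Lyz2, so reads may be divided between them. Mpeg1, a pore-forming protein of phagocytes, lay above 0 at 0.067. It measured 72.8, 37.6 and 75.2 CPM in knockout-labelled libraries, against 42.8, 50.5 and 84.0 CPM in controls. The direction of Mpeg1 turned to -0.11 with the length trend removed, and it lay between -0.12 and -0.034 on leaving out knockout-labelled replicate 1 or 3 or control replicate 1 or 2. Msr1, Ctss, Laptm5 and Axl lay between -0.44 and -0.14. Ctss is a lysosomal protease, Msr1 a scavenger receptor, Laptm5 a lysosomal membrane protein of blood cells and Axl a receptor for the clearance of dead cells.

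The differences farthest below 0 in this role group were those of Fcer1g and Aif1, whose transcripts are short. Fcer1g, the adaptor chain of Fc receptors, measured 30.2, 10.9 and 14.7 CPM in knockout-labelled libraries, against 25.4, 27.8 and 61.7 CPM in controls. The Fcer1g difference was -1.04 on the log2 scale (standard error 0.46, edgeR adjusted p = 0.84). Leaving out control replicate 3 gave -0.51, and leaving out knockout-labelled replicate 1 gave -1.59. Aif1, which encodes the actin-bundling protein IBA1, measured 8.72, 3.05 and 4.48 CPM in knockout-labelled libraries, against 6.02, 7.17 and 14.8 CPM in controls (log2 difference -0.78, standard error 0.46, edgeR adjusted p = 0.84). Tyrobp, the DAP12 adaptor through which TREM2 signals, had a difference of -0.54, which turned to 0.061 without control replicate 3. The mean transcript length of Fcer1g, Aif1 and Tyrobp was 673, 585 and 581 bases. The 736 tested genes of up to 800 bases had median deviations of 0.22, -0.31 and -0.54 in knockout-labelled replicates 1 to 3, against 0.27, 0.13 and 0.31 in control replicates 1 to 3. Once a fitted trend over length was taken out of every library, the differences of Fcer1g, Aif1 and Tyrobp were -0.72, -0.42 and -0.12. With an offset for effective transcript length they were -1.03, -0.59 and -0.53. The part of transcript length in these differences was not tested.

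**Figure D3:**
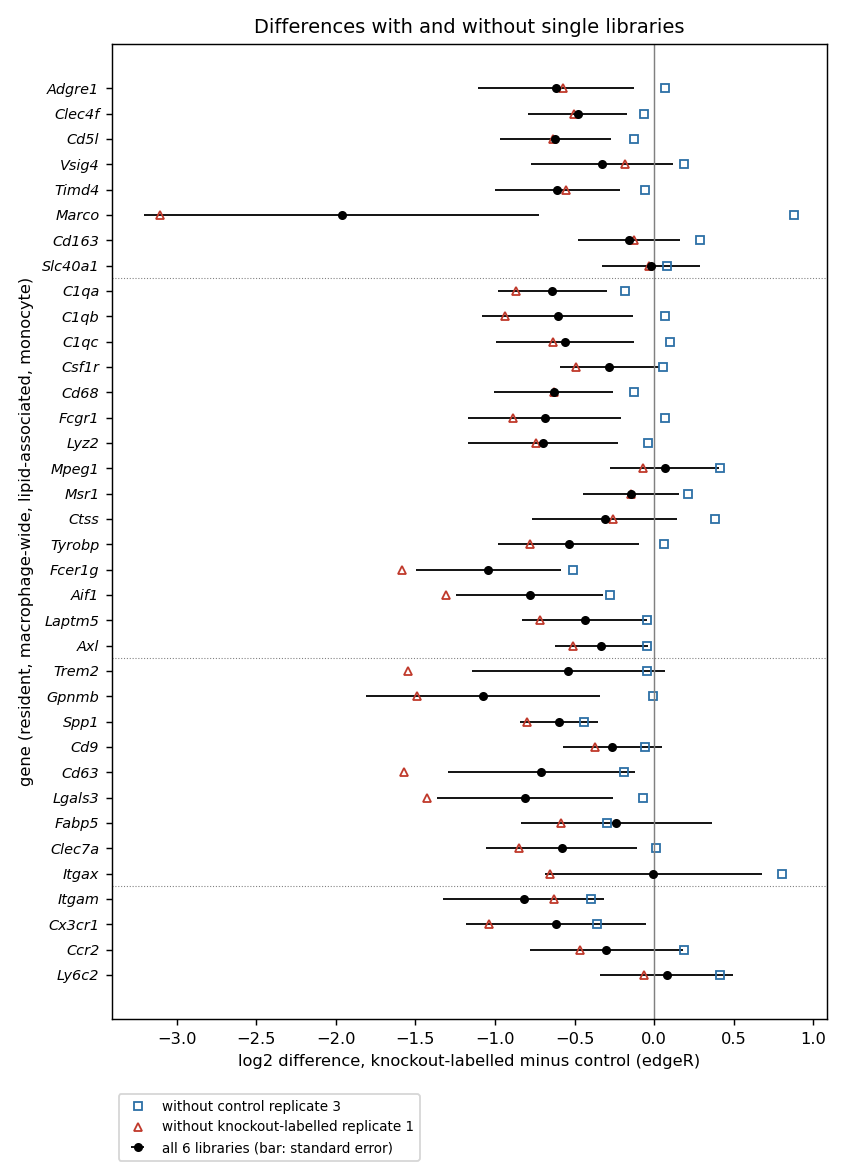
Log2 difference, knockout-labelled minus control, of the 36 markers by edgeR with all 6 libraries (black, bar of 1 standard error), without control replicate 3 (blue squares) and without knockout-labelled replicate 1 (red triangles). With all libraries 34 lie below 0 with TMM scaling (29 with library totals), and without control replicate 3 the squares fall on both sides of 0, with 19 below.

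The markers of lipid-associated macrophages lay lower by a median log2 difference of -0.58, and all 9 were below 0 with TMM factors, while Itgax lay above 0 with upper-quartile factors and Itgax and Fabp5 with library totals. Their sum was 93.7, 48.6 and 56.97 CPM in knockout-labelled libraries, against 80.1, 77.2 and 136 CPM in controls. Knockout-labelled replicate 1 was the highest of its group for all 9 lipid-associated markers and for 1 of the 8 resident markers. This order was not particular to them, as it held for 10 of the 15 genes that macrophages share and all 7 tested B cell genes. It held for 2 of the 8 hepatocyte genes and 2 of the 9 sinusoidal endothelial genes, and the share over all tested genes is not given here. Without control replicate 3 the lipid-associated median was -0.061 with 7 of 9 below 0, and without knockout-labelled replicate 1 it was -0.85. The ratio of the lipid-associated sum to the resident sum was 0.396, 0.244 and 0.230 in knockout-labelled libraries, against 0.481, 0.273 and 0.271 in controls, so that replicate 1 of each group stood above the other libraries. The means of this ratio, 0.290 ± 0.0923 in knockout-labelled libraries and 0.342 ± 0.120 in controls (SD, n = 3 each), differed by less than the spread within either group. With Spp1 left out of the sum, the ratio was 0.249, 0.125 and 0.131 in knockout-labelled libraries, against 0.218, 0.160 and 0.171 in controls. Knockout-labelled replicate 1 was then the highest, and the group means were 0.168 and 0.183.

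Spp1, which encodes osteopontin (chromosome 5, 104435118 to 104441050), had the smallest p of the 36 genes with TMM factors. It measured 34.9, 23.8 and 24.5 CPM in knockout-labelled libraries, against 43.8, 32.0 and 50.2 CPM in controls. The highest knockout-labelled library lay above the lowest control. The log2 difference was -0.60 (standard error 0.24, edgeR unadjusted p = 0.039, adjusted p = 0.84), and with 1 library left out it ran from -0.80 to -0.44, the smaller size being without control replicate 3. Scaled by library totals, the Spp1 difference was -0.36 with an edgeR unadjusted p of 0.22, and Fcer1g had a smaller p of 0.12. Spp1 is also made by bile duct cells, whose 6 markers summed to 16.96, 15.9 and 18.4 CPM in knockout-labelled libraries, against 18.2, 10.7 and 10.1 CPM in controls, and their part in the Spp1 values was not tested.

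Trem2, the lipid receptor that defines the state (chromosome 17, 48346401 to 48354147), measured 5.48, 1.50 and 1.22 CPM in knockout-labelled libraries, against 3.19, 2.46 and 6.24 CPM in controls. Knockout-labelled replicate 1 lay near the highest control, and the other knockout-labelled libraries lay below every control. The difference was -0.54 (standard error 0.61, edgeR adjusted p = 0.90). Leaving out knockout-labelled replicate 1 gave -1.55, and leaving out control replicate 3 gave -0.048. With an offset for effective transcript length the Trem2 difference was -1.13. Gpnmb, a glycoprotein of lysosomes, had 79 counts in all 6 libraries together and measured 0.604, 0.177 and 0.419 CPM in knockout-labelled libraries, against 0.532, 0.274 and 1.72 CPM in controls, where 3 counts equal 0.126 to 0.164 CPM. Its difference was -1.07 (standard error 0.74, edgeR adjusted p = 0.85), and -0.0045 without control replicate 3. Lgals3, the lectin galectin-3, measured 14.2, 4.69 and 6.29 CPM in knockout-labelled libraries, against 10.6, 7.06 and 26.4 CPM in controls. Lgals3 overlapped between the groups, with a difference of -0.81 and a standard error of 0.55 (edgeR adjusted p = 0.85).

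Itgax, the integrin CD11c, averaged nearly the same in both groups. It measured 2.76, 0.487 and 1.55 CPM in knockout-labelled libraries, against 0.745, 1.09 and 2.95 CPM in controls (log2 difference -0.0054, standard error 0.68, edgeR adjusted p = 0.999). Leaving out control replicate 3 gave 0.80 for Itgax, and leaving out knockout-labelled replicate 1 gave -0.65. Cd63 and Cd9, tetraspanins of lysosomes and the cell surface, had differences of -0.71 and -0.26, and Clec7a, the beta-glucan receptor dectin-1, -0.58. Fabp5, a fatty acid carrier, departed from the list, with 6.26, 3.58 and 3.35 CPM in knockout-labelled libraries, against 1.33, 9.53 and 4.72 CPM in controls. Control replicate 2 was its highest library and control replicate 1 its lowest. Fabp5 has near-identical pseudogene copies, so its reads may be divided among them. Cd9, Cd63 and Fabp5 are made by many cell types.

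Monocyte and recruited-cell markers were low throughout, with a sum of 4.92, 2.74 and 4.86 CPM in knockout-labelled libraries, against 3.30, 4.49 and 7.34 CPM in controls. Ccr2, the chemokine receptor by which monocytes leave the bone marrow, measured 1.60, 1.02 and 1.34 CPM in knockout-labelled libraries, against 0.692, 1.64 and 2.52 CPM in controls. The control values again spanned the others, and the difference of -0.30 (standard error 0.48, edgeR adjusted p = 0.93) turned to 0.18 without control replicate 3. Ly6c2, the surface antigen of inflammatory monocytes, lay above 0 at 0.077 (standard error 0.42, edgeR adjusted p = 0.98), with 2.16, 1.11 and 2.22 CPM in knockout-labelled libraries, against 1.17, 1.59 and 2.43 CPM in controls. The direction of Ly6c2 turned with the effective length offset, to -0.039, and on leaving out knockout-labelled replicate 1, knockout-labelled replicate 3 or control replicate 1, at -0.061, -0.086 and -0.14. Ly6c1 is a near-identical neighbour of Ly6c2, and reads of the 2 genes may be divided. Itgam, the integrin CD11b, measured 0.345, 0.443 and 0.671 CPM in knockout-labelled libraries, against 0.799, 0.493 and 1.29 CPM in controls (log2 difference -0.82, standard error 0.50, edgeR adjusted p = 0.84). Cx3cr1, the fractalkine receptor, measured 0.820, 0.177 and 0.629 CPM in knockout-labelled libraries, against 0.639, 0.767 and 1.10 CPM in controls (log2 difference -0.62, standard error 0.57, edgeR adjusted p = 0.88). Itgam, Cx3cr1 and Gpnmb each had fewer than 100 counts over the 6 libraries, so their values rest on few reads.

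Per transcript length, the 36 genes spanned from 0.102 to 51.4 TPM as medians over the 6 libraries. After C1qa and C1qb came Fcer1g at 40.1, Clec4f at 39.0 and C1qc at 33.9 TPM, and Cd5l stood at 28.3 and Spp1 at 21.7 TPM. Among defining markers of the lipid-associated state, Trem2 stood at 1.47 and Gpnmb at 0.112 TPM, below Timd4 at 1.69 TPM. Ccr2, Itgax, Cx3cr1 and Itgam were at 0.326, 0.284, 0.155 and 0.102 TPM. Ly6c2 stood at 2.38 TPM, above the resident markers Timd4, Adgre1 at 1.72 and Cd163 at 2.11 TPM, so the role groups overlapped in level.

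The counts assigned to single transcripts showed patterns that the gene sums hide, and the genes named for them were chosen after their values were seen. For Trem2, a protein-coding transcript of 1088 bases held 31.4, 5.5 and 7.4 estimated counts in knockout-labelled libraries, against 30.9, 33.1 and 83.8 in controls. A retained-intron transcript of 4784 bases held 79.0, 26.2 and 19.3 in knockout-labelled libraries, against 29.1, 11.9 and 47.2 in controls. A shorter coding transcript of 1056 bases held 16.6, 2.3 and 2.3 in knockout-labelled libraries, and 0 in all 3 controls. The retained-intron transcript exceeded both coding ones together in all 3 knockout-labelled libraries and in no control. Control replicate 1 was close to a tie, at 29.1 against 30.9, and all these counts are small. How often transcripts of other genes divide the groups in this way was not counted. For Csf1r, a coding transcript of 3870 bases held 0, 264 and 465 counts in knockout-labelled libraries, against 0, 268 and 510 in controls, and one of 4701 bases took nearly all other counts. Replicate 1 of each group was thus at 0 for a transcript that held many counts in the other 4 libraries. Cd63 showed the converse for its transcript of 1043 bases, with 101.5 and 36.8 counts in replicate 1 of the knockout-labelled and control groups and 0 in the other 4 libraries. For Aif1, a retained-intron transcript of 462 bases held 152.5, 24.7 and 19.8 counts in knockout-labelled libraries, against 69.5, 50.9 and 92.4 in controls. A coding Aif1 transcript of 842 bases held 49.5, 44.7 and 86.2 in knockout-labelled libraries, against 42.4, 80.1 and 217.6 in controls. The division of reads among transcripts is an estimate, and whether it or the tissue differs was not tested.

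**Figure D4:**
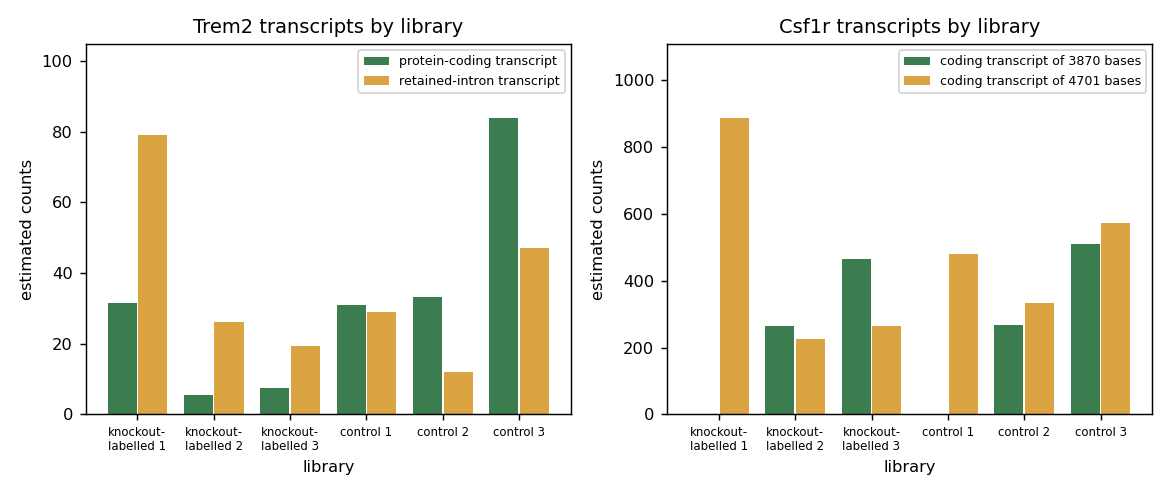
Estimated counts of 2 transcripts of Trem2 (left) and of Csf1r (right) in each library, knockout-labelled libraries first. The retained-intron transcript of Trem2 is the taller bar in the 3 knockout-labelled libraries, and the Csf1r transcript of 3870 bases is at 0 in replicate 1 of both groups.

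Factors that set macrophage identity gave no call either. Of 12 such genes 8 lay below 0 and 4 above, with a median log2 difference of -0.089. Cebpb, a factor of myeloid cells that hepatocytes also make, measured 87.6, 53.9 and 65.9 CPM in knockout-labelled libraries, against 118, 71.4 and 135 CPM in controls (log2 difference -0.64, edgeR adjusted p = 0.84). Id1, a target of BMP signals, was lower without overlap between groups at 10.5, 4.87 and 9.77 CPM in knockout-labelled libraries, against 13.2, 10.6 and 11.8 CPM in controls (log2 difference -0.50, edgeR adjusted p = 0.84). Nfe2l2, the antioxidant factor NRF2, had a difference of 0.32. Control replicate 3 was the highest library for 2 of the 12, compared with 34 of the 36 markers and 16.5% of all tested genes. In the related lists below it was the highest for 6 of 11 tested growth factors and chemokines. It was also the highest for 7 of 12 tested TREM2 and DAP12 signalling genes and for 12 of 20 further lipid-associated genes.

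Growth factors and chemokines for macrophages were also without a call, and 11 of 16 were tested, with 7 below 0 and a median of -0.035. Csf1, the ligand of CSF1R, measured 5.998, 5.22 and 8.09 CPM in knockout-labelled libraries, against 3.83, 4.38 and 5.38 CPM in controls (log2 difference 0.50, standard error 0.27, edgeR adjusted p = 0.84). Ccl24, an eosinophil chemokine that Kupffer cells make, was lower without overlap at 1.47, 1.11 and 1.34 CPM in knockout-labelled libraries, against 1.92, 3.07 and 2.91 CPM in controls (log2 difference -1.01, edgeR adjusted p = 0.84). Tgfb1 had a difference of -0.32, and Csf2 was at 0 in all 6 libraries.

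Of 13 genes that carry the TREM2 and DAP12 signal onward, 12 were tested and 9 lay below 0, with a median of -0.11. Hcst, the DAP10 adaptor, with 75 counts over the 6 libraries, was lower without overlap at 0.518, 0.398 and 0.293 CPM in knockout-labelled libraries, against 0.692, 0.602 and 1.10 CPM in controls (log2 difference -0.98, edgeR adjusted p = 0.84). Ptpn6, the phosphatase SHP-1, was higher without overlap, at 16.4 ± 0.651 CPM in knockout-labelled libraries and 13.2 ± 1.08 CPM in controls, as SD over 3 libraries each (log2 difference 0.31, edgeR adjusted p = 0.84). Separation without overlap, as for Id1, Ccl24, Hcst and Ptpn6, was reached by 9.34% of all tested genes. These genes were also named for having the smallest p in their lists. Of 20 further genes of the lipid-associated state 16 lay below 0, with a median of -0.22. Among them Lpl, the lipoprotein lipase, and Lipa, the lysosomal acid lipase, had differences of -0.74 and 0.44. Apoe, which hepatocytes also make, is among these 20.

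Markers of neutrophils, of T and NK cells and of fibroblasts and stellate cells stood high in the same control library as the macrophage markers. The sinusoidal endothelial list had its highest median deviation there, though not its highest sum. B cell markers were not highest in that library. The dendritic cell median deviation there, 0.24, lay just below the 0.25 of knockout-labelled replicate 1. The 11 neutrophil genes, of which 5 were tested, summed to 11.4, 4.78 and 4.95 CPM in knockout-labelled libraries, against 10.7, 5.48 and 21.1 CPM in controls. Those of 12 T and NK cell genes summed to 11.7, 4.07 and 8.55 CPM in knockout-labelled libraries, against 6.495, 8.82 and 19.3 CPM in controls. Control replicate 3 was the highest library for 4 of the 5 tested neutrophil genes, which include S100a8 and S100a9, and for 8 of the 9 tested T and NK cell genes. S100a8, an antimicrobial calcium-binding protein, measured 1.64, 0.620 and 0.461 CPM in knockout-labelled libraries, against 1.76, 1.15 and 4.48 CPM in controls (log2 difference -1.44, edgeR adjusted p = 0.84). Neutrophils also make Lyz2, Fcer1g, Itgam and Tyrobp, and their part in the values of these genes was not tested. The 9 sinusoidal endothelial markers, which include Stab2 and Clec4g, had their highest sum in knockout-labelled replicate 2, with 196, 255 and 174 CPM in knockout-labelled libraries, against 158, 194 and 244.5 CPM in controls. The 8 B cell genes were highest in knockout-labelled replicate 1, with 258, 21.5 and 24.4 CPM in knockout-labelled libraries, against 100.5, 203 and 64.4 CPM in controls. Fibroblast and stellate cell genes summed to 253, 212 and 149 CPM in knockout-labelled libraries, against 170.2, 99.8 and 305 CPM in controls, and dendritic cell genes lay between 6.08 and 11.4 CPM in all libraries. The 8 hepatocyte genes took between 66830 and 128000 CPM and none was called. Their sum was also highest in control replicate 3, while their median deviation was highest in knockout-labelled replicate 2, at 0.22 against 0.16 in control replicate 3.

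**Figure D5:**
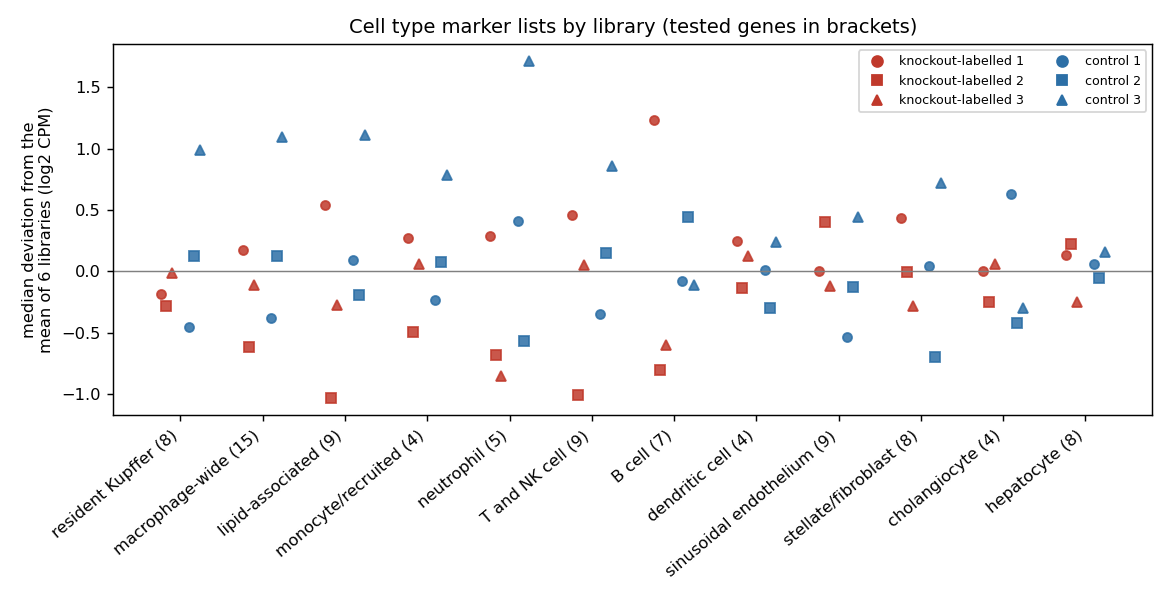
Median deviation of the tested genes of each marker list from the mean of the 6 libraries, in log2 CPM, with knockout-labelled libraries left of controls in each list. Control replicate 3, the blue triangle, is highest for the 4 macrophage lists, the neutrophil, T and NK cell, sinusoidal and stellate lists, and it is not highest for the B cell, dendritic cell, cholangiocyte or hepatocyte list.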

How the data were processed

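The deposited files give, for 115221 transcripts in each of 6 libraries, an estimated count and a TPM, per the file headers, whose columns are those of Salmon. The sources name no version of it. Build GRCm38, RSEM 1.2.8, Bowtie2 2.2.5 and DESeq are listed, without a role, per the submitters' processing notes. The deposited estimated counts are not scaled, and the deposited TPM is scaled by transcript length and library. Effective lengths, also deposited, were set differently for short transcripts in knockout-labelled replicate 1.

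From these, 113664 transcripts were matched without version to GENCODE M21 (GRCm38), and 1557 transcripts, with 0.216% to 0.268% of counts, were left out. Counts were summed to genes and rounded. Genes were filtered with filterByExpr, scaled with TMM factors and tested two-sided in R 4.3.3 by quasi-likelihood (edgeR 4.0.16), with Benjamini-Hochberg adjustment over all 12497 genes and a threshold of 0.05. A standard error is the absolute log2 difference divided by the root of the F statistic. Deviations use log2 CPM with a prior count of 2. The fits were also run on simulated counts with 200 genes changed, and the outcome is not reported here. Those counts held neither a trend over length nor an excess in control replicate 3, so they cannot vouch for the results. The members and lists were chosen with earlier results of these data known. Values in every library are given for the 3 members of each role with the smallest p and for Adgre1, Clec4f, Timd4, C1qa, Csf1r, Trem2, Gpnmb, Spp1, Itgax, Ccr2 and Ly6c2, and for Mpeg1 and Fabp5, which were added after their values were seen. In the other lists, named genes come from the 3 with the smallest p, apart from Apoe and Csf2, and some of these are not reported here.

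The series' design text calls the 3 libraries a group biological replicates. Use of strand is not stated, so reads shared by overlapping genes cannot be told apart. Alternatives were other scalings and filters, DESeq2 1.42.0, an effective length offset, removal of the trend over length (loess, span 0.5, degree 2), each library left out, and the replicate number as a block.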

Additional observations from a re-analysis of the deposited data

How the results depend on the processing

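The count of 0 markers called held under each alternative run. Over all genes edgeR called 0, with 568 at an unadjusted p under 0.05, while DESeq2 called 12 genes, 7 higher and 5 lower, none of them a marker. With 1 library left out edgeR called from 0 to 3 genes, the 3 being without knockout-labelled replicate 1.

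The median log2 difference of each role group moved by less than the spread between libraries under each alternative. That spread, the larger SD among libraries of a group, was 0.73 for resident and 0.75 for macrophage-wide markers. It was 0.79 for lipid-associated and 0.52 for monocyte markers. Each spread exceeded the size of the median itself, so a median could reach 0 without counting as moved, and the comparison cannot show stability. With 1 library left out the median ran from -0.81 to 0.074 for resident markers and from -0.88 to 0.052 for macrophage-wide markers. For lipid-associated markers it ran from -0.85 to -0.061, and for monocyte markers from -0.72 to -0.088. The value nearest to 0 or above it came without control replicate 3 in each group. When scaled by library totals alone the all-gene median moved up by 0.26, and 29 of the 36 markers lay lower, with a median of -0.35, and Cd163, Slc40a1, Msr1, Fabp5 and Itgax turned. By the mean of the deposited TPM 26 lay lower and 10 higher. With the length trend removed the median was -0.45 and with the effective length offset -0.57. With at least 1 CPM required in 3 libraries, 33 markers were tested and the monocyte median was -0.11, since fewer genes entered it. Apart from that and the libraries left out, the cause was not tested.

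The labels do not say what a replicate number stands for, so the numbers were not taken as pairs. The correlations of same-numbered deviations were 0.20, 0.27 and -0.14. Those of unlike numbers ran from -0.43 to 0.34, so the correlations cannot decide whether the numbers are pairs. Replicate 1 of both groups did share the Csf1r and Cd63 transcript counts described. With the replicate block 0 genes were called and 33 of 36 markers lay lower, with a median of -0.44, and Slc40a1 turned to 0.056.

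Depth limits Hcst, Gpnmb, Itgam and Cx3cr1, with 75, 79, 85 and 87 counts over the 6 libraries.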
